A study of Rattus norvegicus with 108 samples.

Results

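Sox2, Sox4, Sox11, Dcx, Hes5, Neurod1 and Tubb2b, 7 genes known for their part in adult neurogenesis, were chosen by symbol and looked up among the 19127 genes measured in single cells of the rat dentate gyrus. Of the 7 genes, 5 had a row in the tables of both regions. Sox4 and Hes5 are not analysed here. The study punched the dentate gyrus from fresh brains in a dorsal part (dorDG) and a ventral part (venDG) and profiled them with droplet-based 3′ RNA sequencing, in which each captured molecule is counted once through a unique molecular identifier (UMI). Male Long-Evans rats were 2 months old at the start. For 6 weeks they drank fluoxetine, a serotonin reuptake inhibitor, at 18 mg per kg body weight per day (FT) or water alone (Sham). Each replicate was pooled from 3 animals, so the p-values below measure the spread between pools. There were 4 FT replicates of dorDG (numbered 1, 2, 4 and 5) and 5 replicates in each of the other 3 groups, dorDG Sham, venDG FT and venDG Sham.

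New granule neurons are made throughout life in the inner rim of the dentate gyrus. Radial glia-like stem cells there keep the transcription factor Sox2 on, give rise to dividing precursors, and then to neuroblasts in which the proneural factor Neurod1 drives neuronal fate, Sox11 promotes neuronal differentiation, and the microtubule protein Dcx and the beta-tubulin Tubb2b build the growing processes. None of these genes is limited to that lineage: Sox2 is also kept on in mature astrocytes and in cells of the oligodendrocyte lineage, and Tubb2b in glial precursors.

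The cells used here numbered 570 for dorDG FT, 719 for dorDG Sham, 1249 for venDG FT and 809 for venDG Sham, and the UMIs summed over a replicate ranged from 220162 to 1523537. Levels are given as UMIs of a gene per 10000 UMIs of the same cells, and because sequencing was from the 3′ end they were not divided by gene length. Each replicate was 1 or 2 droplet reactions, and while the labels say nuclei, the methods describe both whole-cell and nuclear suspensions without saying which reaction held which. Cells with under 2% of their UMIs from ribosomal protein genes (low-ribosomal cells) made up 23.0% ± 13 of dorDG FT replicates (SD, n = 4) against 51.2% ± 14.7 of dorDG Sham replicates (n = 5), and 30.3% ± 13.8 against 40.1% ± 16.7 in venDG. This gap moves with the treatment groups, and its part in the differences between them was not tested.

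Neurod1 and Dcx had the most similar pattern across dorDG cell types among pairs of the 5 genes, described further down with the few cells it rests on, and the 250 bases before the start of each gene are shown for that reason (RefSeq sequence, assembly GRCr8, written 5′ to 3′ on the gene's strand, Neurod1 at chr3:84770455-84770704 and Dcx at chrX:112304162-112304411, both on the minus strand). Capitals mark CANNTG, the E-box letters read by factors of the Neurod1 class, which read the same on both strands.
Neurod1: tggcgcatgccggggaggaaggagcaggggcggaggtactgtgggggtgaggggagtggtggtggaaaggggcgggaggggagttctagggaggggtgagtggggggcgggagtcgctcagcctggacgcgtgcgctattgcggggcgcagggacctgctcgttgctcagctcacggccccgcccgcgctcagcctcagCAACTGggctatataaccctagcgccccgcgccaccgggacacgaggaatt
Dcx: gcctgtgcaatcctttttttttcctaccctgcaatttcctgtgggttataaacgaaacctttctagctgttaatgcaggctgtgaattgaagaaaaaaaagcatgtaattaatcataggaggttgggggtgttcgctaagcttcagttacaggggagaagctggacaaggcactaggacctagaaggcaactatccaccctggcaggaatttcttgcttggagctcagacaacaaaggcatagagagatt
The Neurod1 window held 1 match and the Dcx window held 0. Of 33469 windows of this length before rat genes, 65.5% held at least 1 match.

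Tubb2b was the most widely detected of the genes and Sox11 was close to absent. Over both regions Tubb2b had a UMI in 682 of 3347 cells (20.4%), Sox2 in 478 (14.3%), Dcx in 122 (3.65%), Neurod1 in 71 (2.12%) and Sox11 in 6 (0.179%). Most detections rested on a single UMI: 84.4% of the Dcx-positive cells, 71.8% of the Neurod1-positive cells, 67.6% of the Sox2-positive cells and 54.8% of the Tubb2b-positive cells had exactly 1. The most UMIs in any cell were 56 for Tubb2b, 17 for Sox2, 10 for Neurod1 and 6 for Dcx.

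The regions were close for most genes. Sox2 was detected in 13.7% of dorDG cells (95% exact interval 11.9 to 15.7) and 14.6% of venDG cells (13.1 to 16.2), and Tubb2b in 18.5% (16.5 to 20.8) and 21.5% (19.8 to 23.4). Dcx was detected in 3.18% of dorDG cells (2.29 to 4.29) and 3.94% of venDG cells (3.14 to 4.87), and Neurod1 in 2.95% (2.09 to 4.02) and 1.60% (1.11 to 2.24). These intervals cover counting error only, and the test over replicates is given with the region comparison.

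In dorDG, whose 12 cell types were annotated by the authors, Sox2 was highest in glia. The mean level over replicates that held 5 or more such cells was 2.00 ± 1.36 UMIs per 10000 in the astrocytes AstroSub1 (SD, n = 8), 1.67 ± 0.30 in BergGlia (n = 4), 1.58 ± 0.86 in oligodendrocyte precursors (OPC, n = 7), 0.749 ± 0.429 in Oligodend1 (n = 9) and 0.490 ± 0.114 in Oligodend2 (n = 7). Granule cells followed at 0.361 ± 0.372 (n = 9), and the other 6 types lay between 0.0127 in Mossy and 0.155 in ExcitNeuron. Neighbours in this order did not differ beyond their spread, since their ranges of mean ± SD overlapped at every step. By share of cells, Sox2 had a UMI in 48.3% of OPC at a median depth of 6104 UMIs and in 25.5% of AstroSub1 at 2317 UMIs, but after each cell was thinned to 1500 UMIs the shares were 18.6% and 21.5%. The background, taken from types that should lack the gene, was 4.67% in Microglia1 (6669 UMIs), 2.91% in Microglia2 (1925 UMIs) and 1.67% in Endothelial (2945 UMIs). The source of these UMIs was not tested. OPC held 31.4% of the Sox2 UMIs of dorDG, AstroSub1 22.9%, Oligodend1 18.1% and Oligodend2 11.1%.

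Tubb2b was highest in BergGlia, Granule, OPC and AstroSub1. Its level was 4.88 ± 2.44 UMIs per 10000 in BergGlia (n = 4), 4.35 ± 5.95 in Granule (n = 9), 3.91 ± 1.32 in OPC (n = 7) and 2.60 ± 1.0 in AstroSub1 (n = 8), and these 4 types did not differ beyond their spread. Next came 0.567 ± 0.767 in InhibNeuron (n = 6), apart from AstroSub1 beyond the spread but not from Granule, whose lowest replicate was at 0.453. The order went on with 0.489 ± 0.182 in Microglia1 (n = 9) and, at the end of the order, 0.0665 ± 0.140 in Microglia2 (n = 9). In OPC 69.0% of cells had a UMI (42.3% after thinning), in BergGlia 44.2% and in AstroSub1 33.6%, against a background of 23.4% in Microglia1, 2.91% in Microglia2 and 9.44% in Endothelial, which after thinning was 5.74%, 1.96% and 3.92%. The shares in InhibNeuron (16.3%) and ExcitNeuron (18.2%) lay within that range, as they did after thinning (4.29% and 4.18%). They are not told apart from the background here.

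BergGlia was the smallest and shallowest type, with 43 cells at a median of 1025 UMIs. Its cells had astrocyte markers, with Aldoc in 72.1% and the water channel Aqp4 in 39.5%, and a summed level of 60.3 UMIs per 10000 over the 6 astrocyte markers against 6.63 over the 5 markers listed for Bergmann glia. Sox2 had a UMI in 8 of these cells and Tubb2b in 19, while Dcx and Neurod1 had 0 of 43, so that up to 6.98% could carry a UMI. The mean Tubb2b level was 6.52 in 2 FT replicates (5.51 and 7.54) and 3.24 in 2 Sham replicates (4.84 and 1.65), and the mean Sox2 level 1.55 and 1.79. With 2 replicates a group this was not tested.

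The neuroblast gene Dcx and the proneural gene Neurod1 both had their highest level in Granule. Dcx stood at 0.513 ± 0.631 UMIs per 10000 (n = 9), followed by OPC at 0.164 ± 0.170 (n = 7), ExcitNeuron at 0.147 ± 0.0776 (n = 4) and InhibNeuron at 0.0969 ± 0.0402 (n = 6), with no neighbours apart beyond their spread. It had a UMI in 8.40% of Granule cells and 10.3% of OPC, against 0.935% in Microglia1, 0.971% in Microglia2 and 0.556% in Endothelial. In Oligodend2 it was found in 0 of 95 cells, which allows up to 3.16%.

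Neurod1 was highest in Granule at 0.564 ± 0.947 UMIs per 10000 (n = 9) and next in InhibNeuron at 0.292 ± 0.202 (n = 6), and every other type lay at or under 0.0478, with no neighbours apart beyond their spread. It was absent from the 110 AstroSub1, 43 BergGlia, 180 Endothelial and 103 Microglia2 cells, which allows shares of up to 2.73%, 6.98%, 1.67% and 2.91%. By share of cells the order of the leading types turned: 12.9% of InhibNeuron cells and 5.04% of Granule cells had a Neurod1 UMI, at median depths of 5846 and 1402 UMIs, and after thinning these were 2.52% and 4.91%. No order is read from those shares. Sox11 gave 1 UMI in dorDG, in an ExcitNeuron cell.

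**Figure D1:**
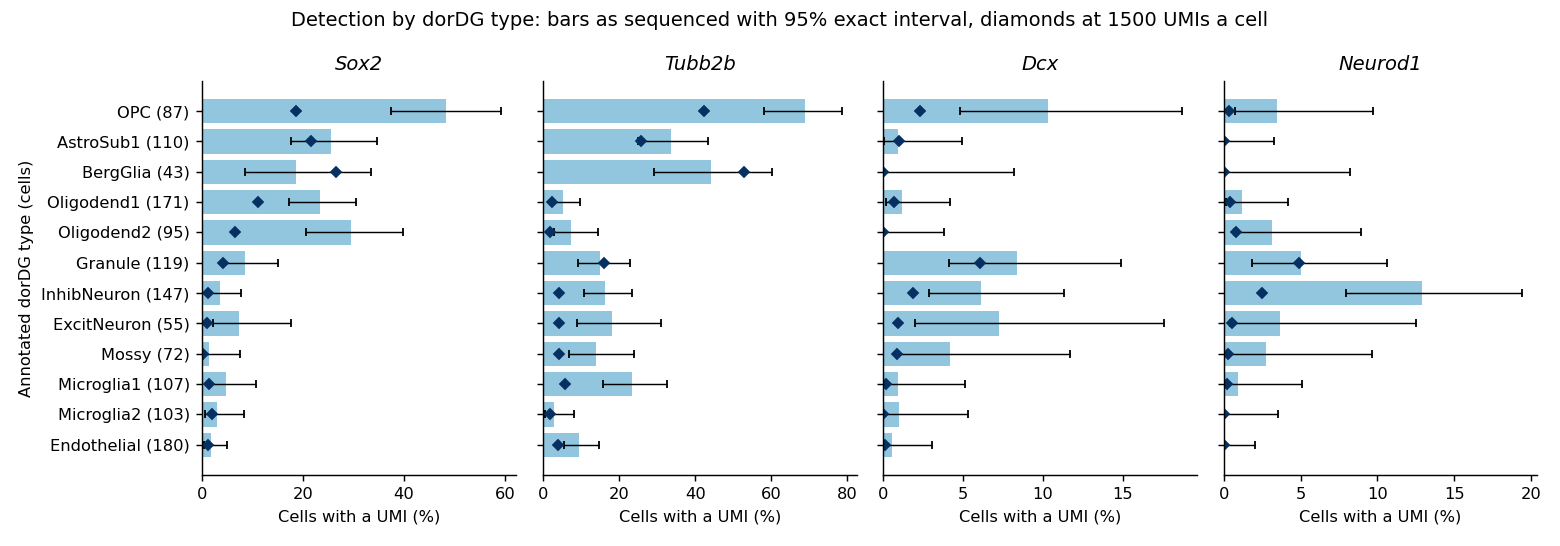
Share of cells with at least 1 UMI of Sox2, Tubb2b, Dcx and Neurod1 (x axis, percent) in the 12 annotated dorDG types (y axis, number of cells in parentheses). Bars show the share as sequenced with its 95% exact interval and diamonds the share after thinning to 1500 UMIs a cell. OPC reach 48.3% for Sox2 and 69.0% for Tubb2b, which thinning lowers to 18.6% and 42.3%, while Granule and InhibNeuron lead for Neurod1.

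The InhibNeuron label did not match its markers. Of its 147 cells, 77.6% had the glutamate transporter Slc17a7, 67.3% the granule cell factor Prox1 and 89.1% the granule marker Stxbp6, while the enzymes of GABA synthesis Gad1 and Gad2 were found in 17.0% and 12.9%. The 19 Neurod1-positive cells of the type, out of 38 in dorDG, carried Slc17a7, Prox1 and Stxbp6 in 89.5% each. Of these 19 cells, 16 were Sham and 3 were FT, from a type with 120 Sham and 27 FT cells, and their median depth was 10478 UMIs against 5846 in the type. The immature marker Cd24 was found in 5.26% of them and Tubb2b in 21.1%. The Mossy label went against its markers too, with Calb2 and Drd2 at 0 of 72 cells and the mural genes Rgs5 and Pdgfrb in 73.6% each. The Granule label had weak support: its 6 granule markers summed to 4.43 UMIs per 10000, below the 5.43 of its excitatory markers and the 9.65 of the same granule markers in InhibNeuron.

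Within the annotated Granule type, nearly all of the Dcx, Neurod1 and Tubb2b signal came from 6 of 119 cells. These were the cells with 3 or more of the 5 genes, so their high levels follow from how they were picked and carry no test. They held 18 of the type's 22 Dcx UMIs (81.8%), 22 of its 23 Neurod1 UMIs (95.7%) and 191 of its 212 Tubb2b UMIs (90.1%). Their median depth was 12010 UMIs, against 1260 in the other 113 Granule cells. Per 10000 UMIs, Tubb2b was at 27.2 in the 6 cells and 0.616 in the others, Neurod1 at 3.14 and 0.0294, Dcx at 2.57 and 0.117, and Sox2 at 0.428 and 0.323.

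Genes that played no part in the choice set these cells apart from the rest of the type as well. The neuronal tubulin Tubb3 was at 14.7 and 0.382 UMIs per 10000 in the 6 cells and the others, the neuroblast surface protein Cd24 at 8.99 and 0.440, Igfbpl1, a gene of newborn neurons, at 0.713 and 0.0294, and the tubulin regulator Stmn2 at 11.4 and 1.06. Genes of mature granule cells went the other way, with Slc17a7 at 0 UMIs in the 6 cells and 1.35 per 10000 in the others and Stxbp6 at 0 and 3.23. Prox1, which is on from precursor to mature granule cell, was at 0.999 and 0.881. Calb2, listed here among genes of neuroblasts and immature neurons, went against the other immature genes shown, at 0 and 0.264 (9 UMIs in the type). Low-ribosomal cells made up 0 of the 6 and 84.1% of the others.

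Cell by cell, the pattern was shared but not uniform. The first FT cell, from replicate 2, held 56 Tubb2b, 4 Dcx and 2 Neurod1 UMIs among 9837. The next FT cell, also from replicate 2, held 49, 6 and 1 with 2 Sox2 UMIs among 14183, and the FT cell of replicate 5 held 13, 1 and 6 among 7498. The FT cells thus differed in whether Dcx or Neurod1 was the higher. The Sham cell of replicate 2 held 47 Tubb2b, 1 Dcx and 3 Neurod1 UMIs among 14517, and that of replicate 4 held 21, 4 and 10 among 7893. The Sham cell of replicate 5 stood apart, with 5 Tubb2b, 2 Dcx, 0 Neurod1 and 1 Sox2 UMIs beside 5 UMIs of Mki67 and 10 of Top2a, which mark dividing cells. Eomes, a factor of intermediate precursors, had 1 UMI in that cell and 1 in the FT cell of replicate 5. With 3 cells in each treatment group no comparison was made.

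No cell type names accompany the venDG counts, so venDG cells were clustered without the 7 genes and the other neurogenesis genes, and clusters were named from listed markers. A cluster of 21 cells took the name Immature neuron-like from Igfbpl1, Draxin and Sema3c, while the list's Eomes and Nhlh1 were at 0. It was not named at a coarser clustering (resolution 1.0). Its median depth was 5642 UMIs and it held 0 low-ribosomal cells. Tubb2b had a UMI in 85.7% of its cells, Neurod1 in 52.4%, Dcx in 38.1% and Sox2 in 33.3%, and Sox11 in 0 of 21.

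These 21 cells held 68.1% of the region's Neurod1 UMIs, 21.5% of its Tubb2b UMIs and 14.0% of its Dcx UMIs. Per 10000 UMIs, Neurod1 was at 3.61 in the cluster and 0.0275 in the other venDG cells, Tubb2b at 20.5 and 1.21, Dcx at 1.03 and 0.103 and Sox2 at 1.33 and 0.553. The genes that led the cluster were Tubb2b, Tubb3 (8.69 and 0.365) and Stmn2 (9.35 and 0.722), and the mature marker Slc17a7 was at 0.0736 and 0.988. The cluster was defined on genes of the same cells, so none of this is a test. As in the 6 dorsal Granule cells, Tubb3, Cd24, Stmn2 and Igfbpl1 were high and Slc17a7 low, but the cyclin Ccnd2 was at 1.71 UMIs per 10000 in the dorsal cells and had no UMI in the ventral cluster. All 6 oligodendrocyte markers were detected in the cluster, with a summed level of 37.5 UMIs per 10000, near the 29.7 in Microglia-like, 30.9 in Excitatory-like and 35.6 in Inhibitory-like cells. The OPC markers summed to 3.31, above the 0.774, 0.881 and 1.69 of those clusters and below the 20.7 in OPC-like cells. Gad1 had a UMI in 23.8% of the cluster and 7.41% of the other venDG cells, and Gad2 in 0% and 4.03%. Doublets were not called.

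**Figure D2:**
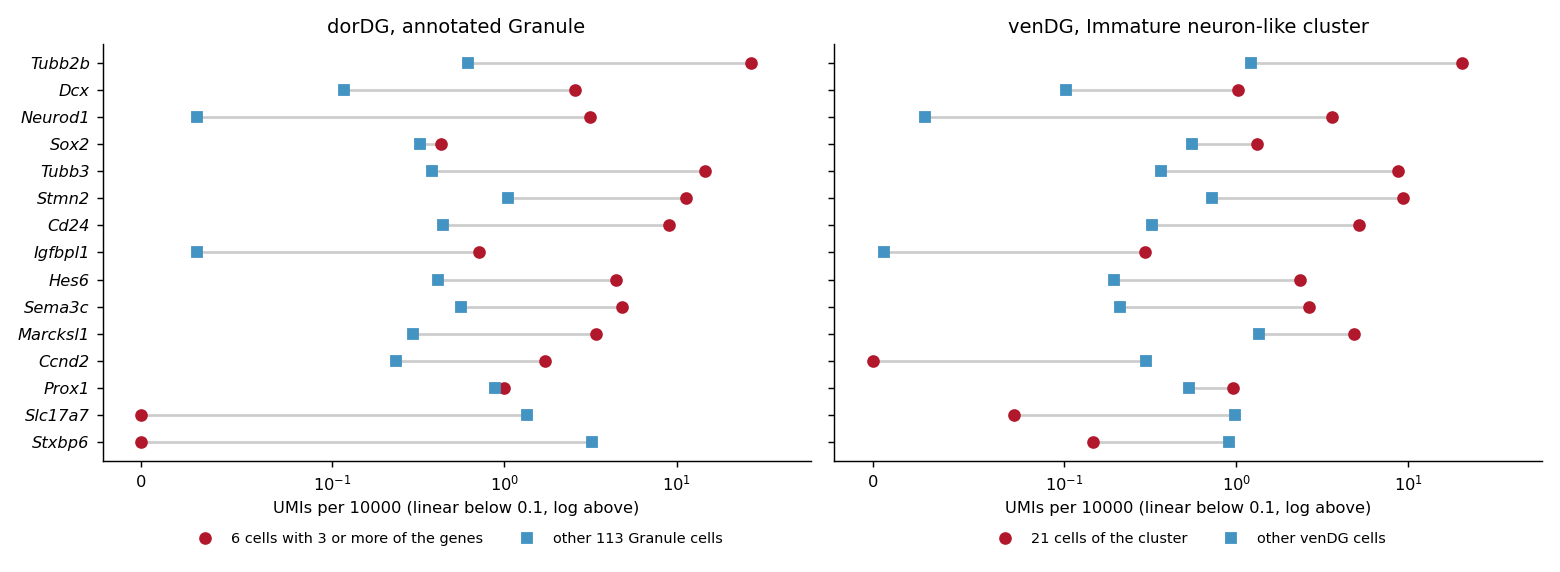
Level of the genes and of markers of immature and mature neurons (UMIs per 10000 on an axis that is linear below 0.1 and logarithmic above) in the 6 annotated Granule cells with 3 or more of the genes against the other 113 (left, dorDG) and in the 21-cell Immature neuron-like cluster against the other venDG cells (right). Red circles lie to the right of blue squares for Tubb2b, Dcx, Neurod1 and Tubb3 and to the left for Slc17a7 and Stxbp6 in both panels.

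Immature neuron-like cells were found in all 5 FT replicates of venDG and in 2 of 5 Sham replicates. Their share of cells in FT replicates 1 to 5 was 1.32%, 1.04%, 0.875%, 1.14% and 2.52%. In Sham replicates 1 to 5 it was 1.21%, 1.14%, 0%, 0% and 0%. The groups overlapped, with means of 1.38% ± 0.66 and 0.469% ± 0.643 (SD, n = 5 each), and the difference did not pass a two-sided exact permutation test (p = 0.0873, smallest possible 0.00794). The 3 Sham replicates without such a cell had 42, 201 and 59 cells in all.

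In the other venDG clusters the glial pattern of dorDG returned. Sox2 was at 2.78 ± 1.16 UMIs per 10000 in Astrocyte-like cells (n = 9), 1.41 ± 0.59 in OPC-like cells (n = 9) and 0.841 ± 0.324 in Oligodendrocyte-like cells (n = 10). Tubb2b was at 6.27 ± 1.27 in OPC-like cells and 3.21 ± 2.55 in Astrocyte-like cells (n = 9 each), and no other named cluster with more than 1 replicate was above 0.651 ± 0.289 in Excitatory-like cells. By share of cells, 76.8% of OPC-like cells had a Tubb2b UMI and 45.2% a Sox2 UMI, against a background of 11.1% and 1.3% in Microglia-like cells.

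Dcx had a UMI in 14.7% of the 177 OPC-like cells and 13.4% of the 164 Excitatory-like cells, against 1.04% in Microglia-like and 1.57% in Endothelial-like cells, at median depths of 4685, 5463, 4234 and 2586 UMIs. Neurod1 was in 9.15% of Excitatory-like cells but in 0 of 177 OPC-like and 0 of 239 Astrocyte-like cells, which allows up to 1.69% and 1.26%. In dorDG OPC, Neurod1 had a UMI in 3 of 87 cells (3.45%), each with Tubb2b as well, a gene found in 69.0% of these OPC. The Neurod1 share was 3.16% in Oligodend2 and 0.935% in Microglia1. After thinning it was 0.370% in OPC and 0.805% in Oligodend2, so the OPC share is not told apart from other glia. Of the 5 Sox11 UMIs in venDG, each was in a different named cluster.

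Cells with at least 2 of the genes numbered 301 of 3347 (8.99%), 97 in dorDG (7.53%) and 204 in venDG (9.91%). At least 3 were found in 16 and 21 cells, and 4 in 1 cell of each region. The pair Sox2 and Tubb2b accounted for most, in 72 dorDG and 155 venDG cells, followed by Dcx and Tubb2b in 23 and 46, Neurod1 and Tubb2b in 14 and 17 and Dcx and Neurod1 in 6 and 10. Deeper cells showed more of the genes: the median depth was 2812 UMIs in cells with none, 4853.5 with 1, 5587.5 with 2 and 7165 with 3.

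By type and as sequenced, co-detection was highest in Immature neuron-like cells, followed by oligodendrocyte precursors of both regions. In dorDG it was seen in 42 of 87 OPC (48.3%), 17 of 110 AstroSub1 (15.5%), 4 of 43 BergGlia (9.30%) and 9 of 119 Granule cells (7.56%), against 1.87% in Microglia1, 0.971% in Microglia2 and 0.556% in Endothelial. In venDG it was seen in 86 of 177 OPC-like cells (48.6%), 49 of 239 Astrocyte-like cells (20.5%), 22 of 164 Excitatory-like cells (13.4%) and 16 of 21 Immature neuron-like cells (76.2%), against 0.259% in Microglia-like cells. Thinning to 1500 UMIs left 10.5% in OPC, 16.7% in OPC-like cells, 0.656% in Excitatory-like cells and 47.4% in the 19 Immature neuron-like cells deep enough. Astrocyte-like cells, at 12.8%, were then above OPC, as were the 7 BergGlia cells deep enough, at 24.3%. Granule stood at 7.5% and AstroSub1 at 7.18%.

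**Figure D3:**
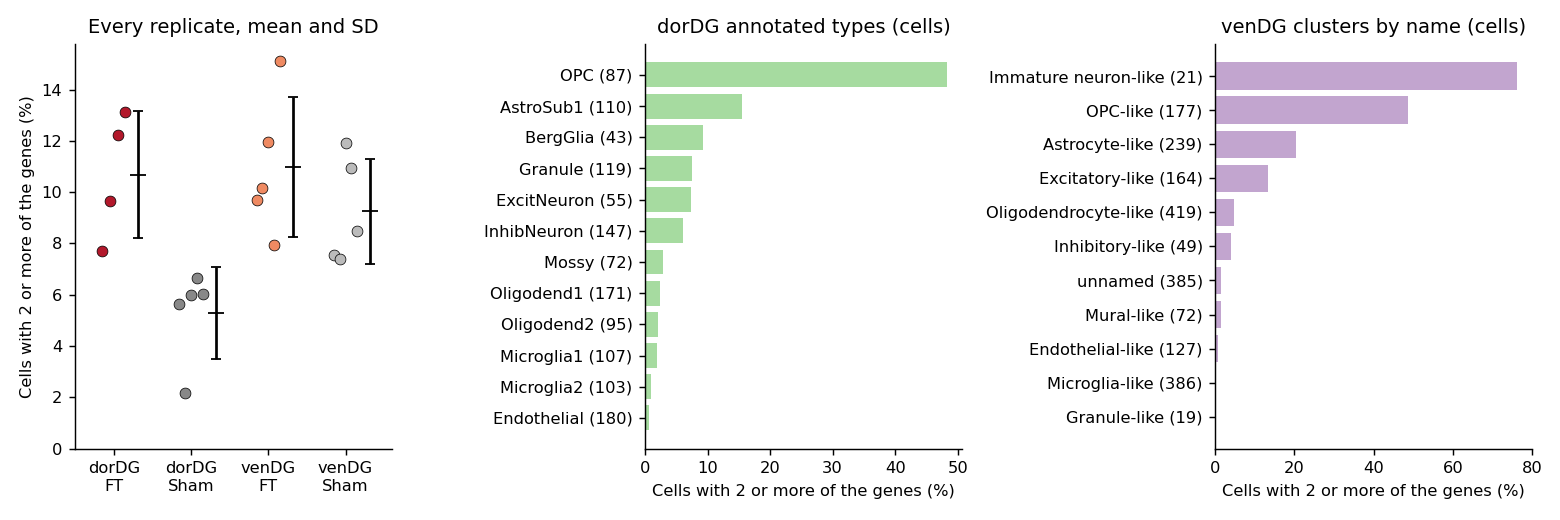
Share of cells with a UMI of 2 or more of the genes (percent). Left, every replicate (points) with mean and SD (bars) in the 4 groups, where dorDG FT lies at 7.69% to 13.1% and dorDG Sham at 2.17% to 6.67%. Middle and right, the share in the annotated dorDG types and in venDG clusters, where OPC and OPC-like cells reach 48.3% and 48.6%.

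Across groups the share of cells with 2 or more of the genes was 7.69%, 9.64%, 12.2% and 13.1% in the dorDG FT replicates 1, 2, 4 and 5. In dorDG Sham replicates 1 to 5 it was 5.65%, 2.17%, 6.00%, 6.67% and 6.03%. The dorDG groups did not overlap, with means of 10.7% ± 2.47 and 5.31% ± 1.79. In venDG the FT replicates gave 9.69%, 10.2%, 12%, 7.95% and 15.1% and the Sham replicates 7.55%, 7.39%, 11.9%, 10.9% and 8.47%, which overlapped. No test was run on this score. At 1500 UMIs a cell the dorDG means were 3.22% and 1.41%, and among cells that were not low-ribosomal 13.1% and 7.88%, so the order of the means stayed. The groups overlapped in both, at 1.52% to 4.48% in FT and 0.598% to 2.71% in Sham after thinning and at 9.65% to 15.8% and 4.48% to 10.8% among cells that were not low-ribosomal. The part of depth, of low-ribosomal cells and of the share of OPC in these differences was not tested.

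Whether fluoxetine changed the genes was asked first over all cells of a replicate, where fewer cells of a type and less RNA per cell cannot be told apart. edgeR's quasi-likelihood test was run on genes averaging 0.5 UMIs per 10000 or more, and a gene was called when its adjusted p (Benjamini-Hochberg) did not exceed 0.2 and its log2 fold change was 0.32 or more in size. Of the 5 genes, 1 passed this filter in dorDG and 2 in venDG. The others were compared by an exact permutation test of the level, with no adjustment over the 10 such tests, and Sox11 with 6 UMIs in all was not tested.

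In dorDG none of the genes passed its test. Sox2 was at 0.322, 0.531, 0.605 and 0.702 UMIs per 10000 in FT replicates 1, 2, 4 and 5 and at 0.470, 0.190, 0.245, 0.279 and 0.574 in Sham replicates 1 to 5. All but 1 FT replicate were above at least 4 of the 5 Sham replicates, but the groups overlapped, with means of 0.540 ± 0.161 and 0.352 ± 0.163, a ratio of 1.54 (two-sided exact permutation p = 0.111, smallest possible 0.0159). Neurod1 was at 0.0403, 0.136, 0 and 0.171 in FT and 0.0362, 0.0691, 0.0612, 0.312 and 0.148 in Sham, where the 0 allows up to 0.0504. The Neurod1 groups overlapped, at 0.0868 ± 0.0800 and 0.125 ± 0.113 (exact permutation p = 0.635). Dcx was at 0.0940, 0.158, 0.0840 and 0.0685 in FT and 0.0543, 0.0518, 0.0815, 0.115 and 0.0555 in Sham, with means of 0.101 ± 0.0394 and 0.0716 ± 0.0271 (exact permutation p = 0.270). Dcx overlapped as well.

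The share of cells with a UMI was compared in the same way, again with no adjustment. For Tubb2b in dorDG FT replicates gave 21.8% ± 3.62 (n = 4) and Sham replicates 15.3% ± 2.43 (n = 5), which passed the test (exact permutation p = 0.0317), but at 1500 UMIs a cell the means of 11.6% and 7.83% did not (exact permutation p = 0.0635). The FT replicates had fewer low-ribosomal cells, 23.0% against 51.2%, and their part in this was not tested. The shares of Sox2 (17.6% and 11.2%, exact permutation p = 0.127), Dcx (3.95% and 2.69%, exact permutation p = 0.0635) and Neurod1 (2.30% and 3.46%, exact permutation p = 0.429) in dorDG did not pass. In venDG none passed, with Tubb2b at 23.6% and 18.8% (exact permutation p = 0.119) and Neurod1 at 2.21% and 0.703% (exact permutation p = 0.0952).

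Tubb2b in dorDG was at 0.564, 2.27, 1.19 and 1.04 UMIs per 10000 in FT replicates 1, 2, 4 and 5 and at 0.714, 1.19, 0.591, 0.970 and 0.814 in Sham replicates 1 to 5. The lowest value of the 9 was an FT replicate, and FT replicate 2, which holds 2 of the 6 dorsal cells described above, was the highest. The log2 fold change was 0.63 ± 0.35 (SE) and was not called (edgeR adjusted p = 0.236), so 0 of 1 tested gene was called where 28.6% of 4274 genes were. With DESeq2 it was called (adjusted p = 0.186). Among cells that were not low-ribosomal the fold change was 0.19 ± 0.36 with 0 of 3800 genes called, and without the second reaction of each replicate it was 0.44 ± 0.44 (edgeR adjusted p = 0.671) with 0 of 4068 genes called.

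In venDG 0 of 2 tested genes were called, as were 0 of 4079 genes in all (0%), with 237 at an unadjusted p under 0.05 in edgeR and 18 called by DESeq2. Sox2 was at 0.457, 0.558, 0.919, 0.327 and 0.776 UMIs per 10000 in FT replicates 1 to 5 and at 0.472, 0.295, 0.454, 0.472 and 0.609 in Sham. The groups overlapped and the log2 fold change was 0.45 ± 0.28 (edgeR adjusted p = 0.767). Tubb2b was at 1.16, 2.22, 1.58, 1.23 and 2.56 in FT and 1.15, 1.11, 1.32, 1.36 and 0.537 in Sham. In venDG 3 of 5 FT replicates were above every Sham replicate, and the log2 fold change of 0.66 ± 0.28 had an unadjusted p of 0.0331 that did not hold after adjustment (edgeR adjusted p = 0.763).

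Neurod1 in venDG was at 0.0381, 0.123, 0.0985, 0.0817 and 0.228 UMIs per 10000 in FT replicates 1 to 5 and at 0.0636, 0.118, 0, 0 and 0 in Sham. The 3 Sham zeros allow up to 0.136, 0.0337 and 0.107, so that depth leaves Sham replicates 3 and 5 open to levels of the FT group. The means of 0.114 ± 0.0710 and 0.0363 ± 0.0533 differed 3.14-fold and did not pass the test (exact permutation p = 0.0714). This is the gene with most of its UMIs in the Immature neuron-like cells, which the same 3 Sham replicates lacked. Dcx was at 0.114, 0.196, 0.0722, 0.0681 and 0.0913 in FT and 0.145, 0.148, 0.0454, 0.135 and 0 in Sham, with overlapping groups and means of 0.108 ± 0.0521 and 0.0946 ± 0.0678 (exact permutation p = 0.746). Leaving out 1 replicate at a time moved the exact permutation p of Neurod1 between 0.0317 (without Sham replicate 2) and 0.143.

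The effect of fluoxetine was compared between regions for Tubb2b, the gene that passed the filter over all replicates. The interaction was -0.06 ± 0.47 on the log2 scale (edgeR adjusted p = 0.968), and 0 of 4161 genes (0%) were called, with 404 at an unadjusted p under 0.05 and 8 called by DESeq2.

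**Figure D4:**
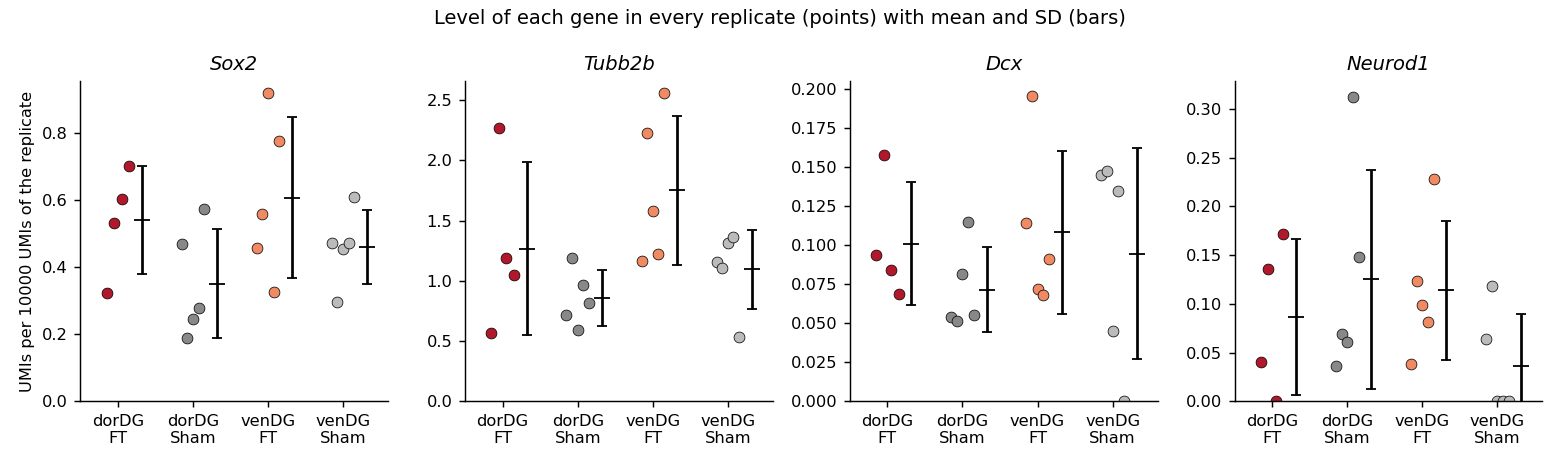
Level of Sox2, Tubb2b, Dcx and Neurod1 (y axes, UMIs per 10000 UMIs of the replicate, each panel with its own scale from 0) in every replicate of the 4 groups (points) with mean and SD (bars). FT and Sham points overlap in every panel, and 3 of 5 venDG Sham replicates lie at 0 for Neurod1.

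Dorsal against ventral levels were compared within each treatment group, using the values above. In Sham, Tubb2b was lower in dorDG by a log2 fold change of -0.43 ± 0.29, which was not called (edgeR adjusted p = 0.721). None of 4313 genes was called there (0%), with 361 at an unadjusted p under 0.05 and 155 called by DESeq2. Sox2 (0.352 in dorDG and 0.461 in venDG, exact permutation p = 0.238), Dcx (0.0716 and 0.0946, exact permutation p = 0.476) and Neurod1 (0.125 and 0.0363, exact permutation p = 0.143) did not pass either. Samples of the same replicate number were taken as pairs here. The Sox2 level was lower in dorDG in 5 of 5 pairs (paired exact permutation p = 0.0625, the smallest that 5 pairs allow). The share of cells with Sox2 was lower in 3 of 5 pairs (paired exact permutation p = 0.4375). At 1500 UMIs a cell it was lower in 4 of 5 (paired exact permutation p = 0.125). By share of cells Neurod1 did pass, at 3.46% in dorDG and 0.703% in venDG (exact permutation p = 0.0397), but neither at 1500 UMIs a cell (1.07% and 0.444%, exact permutation p = 0.175) nor with the pairs (paired exact permutation p = 0.25, lower in dorDG in 2 of 5 pairs). The Neurod1 level differed 3.45-fold, and the lowest dorDG Sham replicate lay below the 2 venDG Sham replicates in which the gene was detected.

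In FT the log2 fold change, dorDG against venDG, was -0.19 ± 0.30 for Sox2 (edgeR adjusted p = 0.999) and -0.45 ± 0.35 for Tubb2b (edgeR adjusted p = 0.955), with 11 of 3994 genes called (0.275%). Dcx (0.101 and 0.108, exact permutation p = 0.794) and Neurod1 (0.0868 and 0.114, exact permutation p = 0.603) were as close. With the replicate number as a block, which pairs dorDG and venDG samples of the same number, 257 genes were called in FT and 105 in Sham, still without Sox2 or Tubb2b at the filter used. With the block and no filter on low counts Tubb2b was called as lower in dorDG FT (-0.56, edgeR adjusted p = 0.0801).

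Within cell types the genes could be tested 14 times over 16 types, and 1 call was made. In venDG Astrocyte-like cells Tubb2b was at 1.96, 6.01, 3.55, 3.59 and 8.28 UMIs per 10000 in FT replicates 1 to 5 and at 0.692, 1.57, 0.466 and 2.76 in Sham replicates 1, 2, 4 and 5. FT replicate 1 lay within the Sham range and the other 4 lay above it. The log2 fold change was 2.05 ± 0.56 (edgeR adjusted p = 0.140), in a comparison where 138 of 4025 genes were called (3.43%). The low-ribosomal share in this class was 36.2% for FT and 75.0% for Sham, and among the other cells the change was 1.48 ± 0.43 (edgeR adjusted p = 0.167). The call was lost without FT replicate 2, 3 or 5 or Sham replicate 1 or 2, with edgeR adjusted p from 0.256 to 0.484, while the fold change stayed between 1.66 and 2.65 over all replicates left out.

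Sox2 in the same Astrocyte-like cells changed by 0.54 ± 0.53 and was not called (edgeR adjusted p = 0.578). In dorDG OPC, where 0 of 4450 genes were called (0%), Sox2 was at 0.987, 3.06, 1.65 and 2.1 UMIs per 10000 in the FT replicates and at 1.21, 0.386 and 1.66 in Sham replicates 1, 2 and 5. The groups overlapped (log2 fold change 0.85 ± 0.51, edgeR adjusted p = 0.931), as they did for Tubb2b (0.31 ± 0.41, edgeR adjusted p = 0.941). Low-ribosomal cells were 20.8% of FT and 35.9% of Sham OPC, 51.0% and 72.1% of AstroSub1 and 28.1% and 64.5% of Oligodend1. In AstroSub1, with 1 of 4304 genes called (0.0232%), the changes were 0.71 ± 0.52 for Sox2 and -0.09 ± 0.47 for Tubb2b, neither called.

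In dorDG Granule cells Tubb2b was at 0.480, 19.4, 2.09 and 4.38 UMIs per 10000 in FT replicates 1, 2, 4 and 5 and at 0.453, 4.64, 0.863, 5.39 and 1.43 in Sham replicates 1 to 5. FT replicate 2 was far above the rest, and 105 of its 106 Tubb2b UMIs came from the pair of cells described above. The log2 fold change was 1.47 ± 0.76 (edgeR adjusted p = 0.598, 0 of 3938 genes called, 0%), and without FT replicate 2 it was 0.07 (edgeR adjusted p = 0.988). Dcx (0.99 ± 0.87) and Neurod1 (0.20 ± 1.02) were not called in these cells. The other 5 tests, of Sox2 in Oligodend1, Oligodendrocyte-like and OPC-like cells and of Tubb2b in Excitatory-like and OPC-like cells, gave log2 fold changes from -0.65 to 0.57 and no call, where 5.98%, 0.2%, 0.0227% and, for Excitatory-like cells, 0% of all genes were called. In the other 8 types tested none of the genes passed the filter, and 0.0581% of all genes were called in Microglia2, 0.029% in Oligodend2, 0.0512% in Mural-like cells and 0% in the rest.

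The 8 replicates with a pair of reactions showed how far the genes moved within the same tissue pool. In the reaction listed first, 4.08% to 15.5% of cells were low-ribosomal, and in the reaction listed second 78.3% to 95.9%. Tubb2b was at 1.70 ± 0.78 UMIs per 10000 in the first and 0.275 ± 0.122 in the second (SD, n = 8) and was higher in the first in 8 of 8 pairs. The log2 fold change was 2.99 ± 0.22 (edgeR adjusted p = 1.93e-08), among 84.1% of 4378 genes called. Sox2 was at 0.477 ± 0.180 and 0.234 ± 0.132, higher in the first in 7 of 8 pairs (two-sided exact permutation p = 0.0156), and Neurod1 at 0.0978 ± 0.0664 and 0.0174 ± 0.0284, higher in 6 of 8 (exact permutation p = 0.0625). Dcx did not follow, at 0.105 ± 0.0482 and 0.150 ± 0.0975 and higher in the first in 3 of 8 pairs (exact permutation p = 0.195).

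Treatment differences within a reaction class were uneven. For Tubb2b in dorDG the mean was 1.75 in FT and 1.37 in Sham in the reaction listed first (n = 2 each), 0.192 and 0.194 in the reaction listed second, and 1.12 and 0.792 in replicates with a single reaction (n = 2 in FT and 3 in Sham). For Tubb2b in venDG these means were 2.16 and 1.54, 0.344 and 0.368, and 1.79 and 1.07. The sign of these means held outside the reaction listed second and was flat within it, but most of the groups overlapped. In the first reaction of dorDG the FT values, 0.658 and 2.84, lay on both sides of the Sham values, 1.10 and 1.64. For Tubb2b only the single-reaction replicates of dorDG did not overlap, at 1.04 to 1.19 in FT and 0.591 to 0.970 in Sham. For Neurod1 in venDG the means were 0.102 in FT and 0.128 in Sham in the reaction listed first and 0.136 and 0 in replicates with a single reaction, so the higher FT level came from the latter. For Sox2 in dorDG they were 0.512 and 0.357, 0.0915 and 0.311, and 0.654 and 0.366. The Sox2 groups overlapped in the reaction listed first. In the reaction listed second FT lay below Sham without overlap, at 0.0824 to 0.101 against 0.234 to 0.388. In the single-reaction replicates FT lay above Sham without overlap, at 0.605 to 0.702 against 0.245 to 0.574. These differences within a reaction class were not tested.

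**Figure D5:**
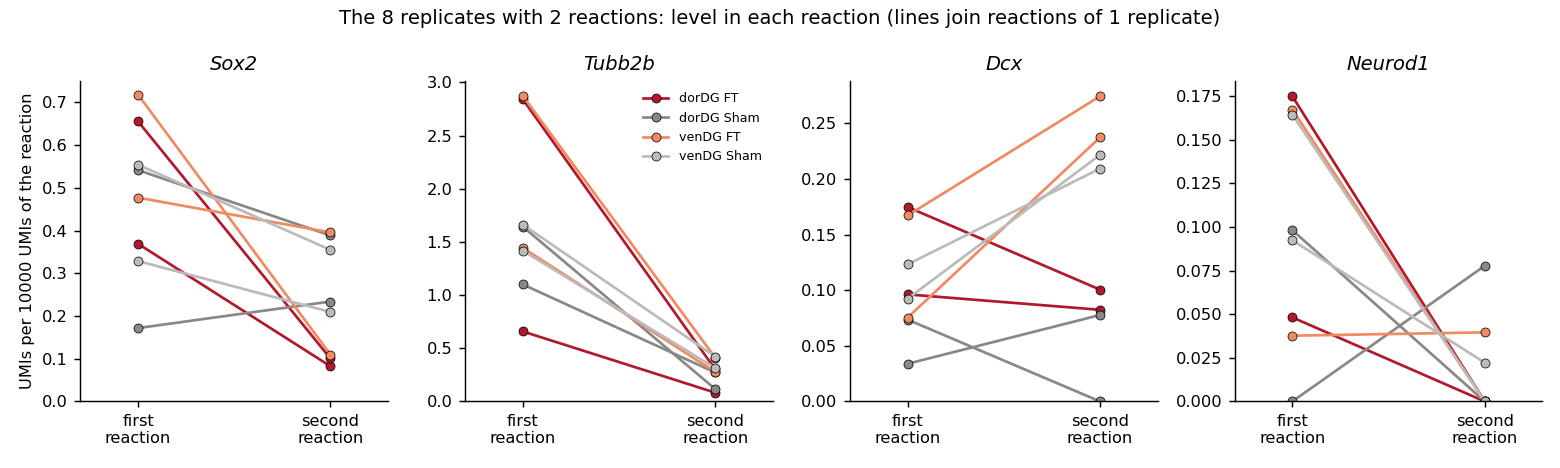
Level of Sox2, Tubb2b, Dcx and Neurod1 (UMIs per 10000 UMIs of the reaction) in both reactions of the 8 replicates that have 2, with a line joining reactions of 1 replicate and colours for the group. Every Tubb2b line falls, from 0.658 to 2.87 in the reaction listed first to 0.0824 to 0.421 in the other, and Dcx lines run in both directions.

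Beside the 7 genes, 76 other neurogenesis genes were measured, in lists of stem cell and radial glia genes (18), the Notch pathway (14), proliferation and intermediate precursors (15) and neuroblasts and immature neurons (29). The stem cell gene Nes and the precursor gene Eomes, named here after their values were seen, were sparse, with 7 and 3 UMIs in dorDG and 5 and 0 in venDG, but 8 of the 18 stem cell genes and 4 of the 15 proliferation and precursor genes passed the filter in dorDG. In dorDG, FT against Sham, 30 of the 76 passed the filter, 4 rose and 4 fell, and their median log2 fold change was 0.30 beside -0.04 over all genes tested. Those that rose were the intermediate filament gene Vim (1.0 ± 0.26), the axon guidance gene Draxin (0.99 ± 0.43), the imprinted gene Nnat (0.80 ± 0.36) and the actin-binding peptide gene Tmsb10 (0.70 ± 0.31). The transcription factor genes Bcl11b (-1.20 ± 0.36), Bcl11a (-0.96 ± 0.36) and Prox1 (-0.85 ± 0.25) and the netrin receptor gene Dcc (-0.68 ± 0.27) fell. The edgeR adjusted p of these 8 genes lay between 0.155 and 0.188. The share called, 26.7%, is close to the 28.6% of all genes. At the same filter edgeR called 0 genes in this comparison with the replicate number as a block, among cells that were not low-ribosomal or without the second reactions, and leaving out a replicate gave 0 to 1969 called genes. Between reactions of the same replicate 7 of these 8 were called in the direction they took with fluoxetine, while Draxin was not tested there. Vim was at 2.15, Tmsb10 at 3.55 and Bcl11a at -2.46. In that comparison 84.1% of 4378 genes and 73.1% of the 26 list genes tested were called. How often the directions matched over all genes was not counted.

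In the other comparisons over all cells 0 genes of these lists were called, of 26 tested in venDG, 28 in Sham, 27 in FT and 27 in the interaction. The highest and lowest log2 fold changes were 1.10 for Gfap, 0.47 for Stmn2, -0.59 for Lpar1 and -0.46 for Dcc in venDG. For dorDG against venDG in Sham they were 1.66 for Bcl11b, 0.96 for Bcl11a, -1.37 for Nnat and -0.57 for Notch1, and in FT 1.20 for Draxin, 1.19 for Lpar1, -1.03 for Nnat and -0.40 for Stmn2. Within types 1 list gene was called, Thrsp in venDG Astrocyte-like cells (2.17 ± 0.63, edgeR adjusted p = 0.140), where Tubb2b was called as well.

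Markers of dividing cells were mostly seen as single genes. Mki67 or Top2a had a UMI in 114 dorDG and 127 venDG cells, both together in 7 and 5 cells. Of the cells with either marker, 20 in each region had 2 or more of the neurogenesis genes.

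The genes most alike in level across the 12 dorDG types, by Pearson correlation of log2(UMIs per 10000 + 1), were a description over 12 points that share libraries. Dcx and Neurod1 had r = 0.89 with each other, Sox2 and Tubb2b 0.72 and Sox2 and Neurod1 -0.19. The likeness of Dcx and Neurod1 rested on Granule, whose level of both genes came mostly from 6 of 119 cells, and was 0.45 over the 11 other types. Over those 11 types the closest pair was Sox2 and Tubb2b, at 0.87. Sox2 was most like Asrgl1 (0.97), Zcchc24 (0.96) and Gpr37l1 (0.93), and Tubb2b most like Macrod1 (0.91), Ddah2 (0.90) and Smtnl1 (0.86), genes highest in astrocytes, BergGlia or OPC. Neurod1 was most like Stmn2 (0.80), Epha3 (0.79) and Sema3c (0.78). The same 6 cells held 69.0% of the Stmn2 and 64.2% of the Sema3c UMIs of Granule. Dcx was most like the hemoglobin genes Hbb-b1 (0.85), Hba2 (0.84) and Hba1 (0.83), which were highest in Granule, where they reached 75.8, 235 and 429 UMIs per 10000. Sox11, with 1 UMI in dorDG, was most like Khdrbs3 (0.88), Nptxr (0.85) and Chgb (0.85), which were highest in ExcitNeuron.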

How the data were processed

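Droplet libraries (3′ chemistry, reagent kit v2) of 27 reactions, 4 libraries each, made up 19 replicates. The deposited tables are raw UMI counts by gene and cell, which the authors made with Cell Ranger; the submitters' processing notes name Cellranger 2.1.0, rn5 and Seurat 3. The authors' annotation of dorDG cells (type and treatment, a deposited table of other values) was used for dorDG cell types, and the authors' log-normalized venDG values were not used. Groups came from the labels. All 1289 dorDG cells carried the label's treatment in the annotation. Of 3517 columns, 3347 were used. In venDG 170 columns with a second suffix, 167 of which repeat a barcode of the same reaction, were left out, and 9 barcodes occurred in more than 1 reaction. Sox4 and Hes5 are not analysed here. The genes, gene lists and markers were chosen with earlier results of these data known.

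Counts were summed per replicate over its reactions. Genes at 0.5 UMIs per 10000 or more were tested with edgeR 4.0.16 (quasi-likelihood, TMM, Benjamini-Hochberg) in R 4.3.3 and called at an adjusted p of at most 0.2 and 1.25-fold, the study's thresholds; DESeq2 1.42.0 was an alternative. Less abundant genes had two-sided exact permutation tests (scipy 1.17.1, threshold 0.05). Types entered with at least 5 cells in a replicate and 3 replicates a group. The edgeR step was tested on simulated data. venDG cells were clustered with scanpy 1.11.5 (2000 variable genes, 30 components, 15 neighbours, Leiden resolution 2.0) without the genes studied or their lists, and 23 of 28 clusters were named from at least 3 markers; 385 cells stayed unnamed. Cells were thinned to 1500 UMIs over 20 draws, leaving out shallower cells. No doublet caller was run. Exact intervals of 95% and limits of 3 counts cover counting error only. Other neurogenesis genes were named if called, or if among the 2 highest or 2 lowest fold changes of a comparison, and the 3 genes most like each studied gene were named.

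Samples of dorDG and venDG with the same replicate number were taken as pairs, which the single-cell methods do not state. Their deviations from the group means correlated at 0.22 to 0.56 in Sham and 0.13 to 0.42 in FT. Paired exact permutation tests were added there. FT and Sham samples of the same number were not taken as pairs. They correlated at -0.26 to 0.41 in dorDG and -0.22 to 0.32 in venDG, which overlaps the ranges above. Whether they pair is therefore not settled, and results with the replicate number as a block are given below.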

Additional observations from a re-analysis of the deposited data

Results flagged for a closer look

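Of 44 groups of values examined for a sample far from the others, 8 had one. Level and share of the same gene were both counted, so no rate expected by chance is set beside this number. Neurod1 had a UMI in 5.04% of cells of venDG FT replicate 5, above the other FT replicates. The share of cells with 2 or more of the genes was 2.17% in dorDG Sham replicate 2, below the other Sham replicates. Sox11 stood out wherever a single replicate held its UMIs, at 0.0113 UMIs per 10000 and 0.508% of cells in dorDG FT replicate 2, 0.0290 and 1.04% in venDG FT replicate 2, and 0.0148 and 0.568% in venDG Sham replicate 2. A single replicate with UMIs among zeros is flagged whatever its value.

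In the 170 venDG columns left out for a second suffix, Dcx was at 0.306 UMIs per 10000 (9 UMIs in 9 cells), above the highest venDG Sham replicate at 0.148, while Neurod1 and Sox11 had 0 UMIs there.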

How the results depend on the processing

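Leaving out the second reactions, pairing the permutation tests between regions and testing the immature share were chosen after seeing the data. In dorDG, FT against Sham, DESeq2 called 1 of the genes (Tubb2b, adjusted p = 0.186), and leaving out a replicate gave 0 to 1 calls (1 without FT replicate 1 or Sham replicate 2), with Tubb2b between 0.18 and 0.88. FT and Sham samples of the same number correlated at -0.26 to 0.41 in dorDG and -0.22 to 0.32 in venDG and were not taken as pairs. Under the replicate block the dorDG Tubb2b change was 0.39 and not called. The block with no filter called 1 gene for the regions in FT, no filter 3 between reactions, and leave-one-out 0 to 1 within types. All genes called in dorDG numbered 1221, against 1849 with DESeq2, 207 with no filter, 0 with the block, 621 with the block and no filter, 0 and 23 in cells of 2% ribosomal UMIs or more and under 2%, 0 without the second reactions and 0 to 1969 without a replicate. In venDG 0 became 18 (DESeq2), 3 (no filter) and 51 (block, no filter); between regions in Sham 0 became 155, 61 and 556, and 105 (block), 95 (under 2%) and 0 to 142 (without a replicate). In FT 11 became 148, 49 and 732, and 257 (block), 0 and 21 (2% or more and under 2%), 0 (second reactions out) and 0 to 37 (without a replicate). The interaction went from 0 to 8 (DESeq2) and 0 to 335 (without a replicate), and the reactions from 3684 to 9724 (no filter).

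The share of cells with 2 or more of the genes at 1500 UMIs was 3.22%, 1.41%, 4.16% and 2.46% in dorDG FT, dorDG Sham, venDG FT and venDG Sham. Among cells with 2% or more ribosomal UMIs the share was 7.88% in dorDG Sham, 14.8% in venDG FT and 12.6% in venDG Sham. Thinning gave 2.28% for Dcx, 18.6% for Sox2 and 42.3% for Tubb2b in OPC and 2.52% for Neurod1 in InhibNeuron, and cells of 2% or more gave 60.3% and 90.5% for Sox2 and Tubb2b in OPC and 33.3% for Neurod1 in InhibNeuron.

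Directions turned for values that had not passed a test. On the log2 scale these were Sox2 between regions in FT (0.012 with the block, 0.0058 with no filter as well), Neurod1 in Granule (-0.10 with DESeq2), Tubb2b in Excitatory-like cells (0.049 with the block) and Sox2 in Oligodendrocyte-like cells (0.058 with no filter, 0.13 in cells of 2% or more). In UMIs per 10000, FT minus Sham for Dcx was -0.0155 in dorDG and -0.00558 in venDG in cells under 2%, dorDG minus venDG for Sox2 in Sham was 0.00129 in those cells, and for Dcx in FT 0.0198 in cells of 2% or more and 0.0111 without the second reactions. Leaving out a replicate moved Sox2 between regions in FT from -0.36 to 0.024, the Tubb2b interaction from -0.49 to 0.19, Tubb2b in AstroSub1 from -0.34 to 0.15, Neurod1 in Granule from -0.12 to 0.50 and Tubb2b in Excitatory-like cells from -0.44 to 0.073 (log2). In UMIs per 10000 it moved Neurod1 in dorDG from -0.0667 to 0.00817, Dcx in venDG from -0.0100 to 0.0269, and between regions in FT Dcx from -0.0261 to 0.0147 and Neurod1 from -0.0553 to 0.00178. The causes of these changes were not tested.

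The main results were counts of calls and shares of cells. Of their values, 56 under other settings and 88 without a replicate stayed near the main value, while 17 and 7 moved. Near meant a similar count, a share within the SD over replicates, or a share inside its exact interval. Direction was followed for the other results, of which 11 values under other settings and 23 without a replicate reversed. At resolution 1.0 no cluster took the name Immature neuron-like. Few UMIs limit Sox11, Dcx and Neurod1.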
